A study of Mus musculus with 28 samples.

Results

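Transcripts of 10 genes of the PIWI-interacting RNA (piRNA) pathway were followed through the exit of mouse embryonic stem (ES) cells from the naive state, in cells with and without Zfp281, Ehmt1 or Zic2. The genes were chosen by symbol and are Piwil2, Ddx4, Mov10l1, Tdrd1, Tdrd9, Tdrd12, Tdrkh, Asz1, Mael and Fkbp6. All 10 were found among the 24116 gene rows of the deposited count tables, and all 10 passed the filter on low counts in each set of libraries. The cells were of RGd2, a female mouse ES cell line with a Rex1 reporter (GFPd2), and every group shared this background. At the stage called ESC the cells grew in N2B27 medium with 2i, a Gsk3 inhibitor (CHIR99021) together with a Mek inhibitor (PD0325901). The later stages followed 16 h and 32 h of culture without 2i. Ribosome-depleted total RNA of wild type (WT) and Zfp281 knockout (KO) cells was sequenced at all 3 stages. PolyA RNA was sequenced at ESC and 32 h for WT cells and for cells lacking Ehmt1 (Ehmt1 KO), Zic2 (Zic2 KO) or both (Ehmt1/Zic2 KO, called double KO here). There were 14 groups of 2 libraries. The WT libraries of a group came from differently named WT lines, and the KO libraries from differently named KO lines, so that a genotype rests on 2 lines. The labels do not say which part of a gene was altered in a KO line. P-values rest on a spread between lines that was estimated over all groups of a set of libraries together and shared across genes. They do not reflect only the lines of the 2 groups compared. Nothing in the labels says that a stage was repeated within a line.

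The piRNA pathway protects the genome of germ cells from transposable elements. PIWI proteins carry small RNAs that guide the cleavage of transposon transcripts in the cytoplasm and the methylation of transposon promoters in the nucleus, and Tudor domain proteins and RNA helicases assemble this machinery in granules beside the mitochondria (nuage). The genes act mainly in the male germ line, and in other cells many of them are held silent by methylation of CpG-rich promoters, by H3K9 methylation, to which the Ehmt1 protein (GLP) contributes, or by a Polycomb complex (PRC1.6) whose subunits Mga/Max and E2f6 bind E-box and E2F sequences.

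RefSeq promoter windows on the GRCm38.p6 build, each 300 bases long and reaching from 250 bases before to 50 bases after a transcript start, were found for 9 of the 10 genes; Piwil2 had no entry. A single window per gene is shown for the gene that differed most without Ehmt1 (Asz1) and for Fkbp6. It is also shown for 3 of the genes that moved together across the libraries (Mael, Ddx4 and Tdrd1). Fkbp6 was called higher than WT at ESC in all 4 KO genotypes, of which those in polyA libraries were compared with the same WT libraries. Of these calls, only that of the double KO held under every alternative fit described below. Capitals mark matches on either strand to the E-box CACGTG or the E2F core TCCCGC.
Asz1: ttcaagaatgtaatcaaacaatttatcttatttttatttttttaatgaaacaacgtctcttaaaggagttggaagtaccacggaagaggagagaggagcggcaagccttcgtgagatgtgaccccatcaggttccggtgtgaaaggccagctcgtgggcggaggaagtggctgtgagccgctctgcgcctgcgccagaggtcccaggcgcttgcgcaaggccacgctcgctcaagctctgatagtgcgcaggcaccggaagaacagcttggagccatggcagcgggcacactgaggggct
Mael: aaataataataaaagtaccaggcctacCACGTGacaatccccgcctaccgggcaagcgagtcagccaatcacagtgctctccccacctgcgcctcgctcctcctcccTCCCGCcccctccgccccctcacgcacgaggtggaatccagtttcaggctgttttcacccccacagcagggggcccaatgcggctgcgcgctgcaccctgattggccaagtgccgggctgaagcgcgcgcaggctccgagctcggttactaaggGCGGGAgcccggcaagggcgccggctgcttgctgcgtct
Ddx4: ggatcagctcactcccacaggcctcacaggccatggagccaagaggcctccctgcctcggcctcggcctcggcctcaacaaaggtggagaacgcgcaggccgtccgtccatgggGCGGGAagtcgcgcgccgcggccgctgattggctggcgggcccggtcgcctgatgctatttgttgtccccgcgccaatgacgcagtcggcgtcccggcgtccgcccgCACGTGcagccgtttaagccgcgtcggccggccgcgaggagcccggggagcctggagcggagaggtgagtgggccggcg
Tdrd1: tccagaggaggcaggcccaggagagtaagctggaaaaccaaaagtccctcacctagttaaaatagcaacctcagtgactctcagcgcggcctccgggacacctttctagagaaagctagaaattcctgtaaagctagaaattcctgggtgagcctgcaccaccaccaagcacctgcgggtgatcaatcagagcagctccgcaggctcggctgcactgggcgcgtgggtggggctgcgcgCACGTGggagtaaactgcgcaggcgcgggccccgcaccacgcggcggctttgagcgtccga
Fkbp6: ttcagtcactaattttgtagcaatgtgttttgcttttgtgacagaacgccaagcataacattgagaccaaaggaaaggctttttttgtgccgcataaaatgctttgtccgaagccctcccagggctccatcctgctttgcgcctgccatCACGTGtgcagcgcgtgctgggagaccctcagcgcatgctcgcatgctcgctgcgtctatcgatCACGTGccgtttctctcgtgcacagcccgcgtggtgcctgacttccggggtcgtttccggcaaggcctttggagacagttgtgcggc
The Asz1 window was chr6:18109012-18109311 (minus strand), with a GC content of 54.3% and 17 CpG sites. Its ratio of observed to expected CpG was 0.783, and it held neither motif. The Mael window, chr1:166238695-166238994 (minus strand), had a CpG ratio of 0.78, an E-box and 2 E2F cores. The Ddx4 window, chr13:112652261-112652560 (minus strand), had 38 CpG sites, a CpG ratio of 0.978, an E-box and an E2F core. The Tdrd1 window, chr19:56825959-56826258 (plus strand), had a CpG ratio of 0.733 and an E-box 11 bases before the start. The Fkbp6 window, chr5:135349995-135350294 (minus strand), had a CpG ratio of 0.926 and 2 E-boxes. These 5 windows were all rich in CpG, and an E-box was present in 4 of them. Another Tdrd1 window, from 56830462, had a CpG ratio of 0.216 and no E-box.

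Over all 9 genes, 7 had a window with a CpG ratio of at least 0.6, against 35.8% of 32851 windows of the whole RefSeq table. Tdrd12 (0.408 at most) and Tdrd9 (0.43) were the others. These counts by gene take any of 13 windows, whereas the shares of the whole table are by single window. An E-box was present in 6 of the 9 genes and in 7.15% of all windows. An E2F core was present in 2 of 9 genes and in 20.0% of all windows. The C-rich core CCTCCCC, which was also searched on both strands, was present in 1 gene, Tdrd12, and in 19.5% of all windows. Tdrkh, like Asz1, held none of the 3 motifs, although its window had a CpG ratio of 0.956. A match is a string of letters in this window, and no binding or methylation was measured here.

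All 28 libraries had between 18086421 and 36365192 counts. The WT line named Zfp281_WT stood apart at ESC and 32 h, where 89.0% and 87.0% of 1108 olfactory receptor genes had a count against at most 24.8% in every other library, and counts of the ribosome-depleted set are therefore also given without it, with each value that it moved. Ehmt1 transcript was at 17.6 to 31.4 CPM (counts scaled to library size) in the 8 libraries without Ehmt1 and at 80.3 to 154 CPM in the other 8 polyA libraries, whereas Zfp281 (278 to 350 CPM in KO against 238 to 340 in WT) and Zic2 (107 to 228 CPM in Zic2 KO and 66.5 to 208 in double KO against 105 to 146 in WT) transcripts were still present in their KO libraries, of which only those of double KO replicate 2 (66.5 and 77.3 CPM of Zic2) were below every WT library, so that these levels do not check the labels. Summed naive pluripotency markers (6 genes) were at 2390 to 2470 CPM in the polyA WT libraries of the ESC stage and at 214 to 230 CPM 32 h later. In KO cells these markers were higher at 32 h, at 1060 to 1130 CPM without Zfp281 against 271 to 576 in WT, and at 558 to 1060 CPM in the 4 libraries without Ehmt1. Formative markers (5 genes) at 32 h summed to 1370 to 1470 CPM in WT against 633 to 684 without Zfp281. In polyA libraries they summed to 1340 to 1470 CPM in WT, 1420 and 1440 in Ehmt1 KO, and 766 and 974 in double KO. Their part in the differences described below was not tested. Tdrkh shares 2255 of its 6142 exonic bases with Oaz3 on the opposite strand, and whether counting used strand is not given in the sources used here, so Tdrkh values are uncertain; Oaz3 itself was at 0.378 CPM or less in every library.

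In naive WT cells the 10 genes spanned a wide range. Per kilobase of exon, Tdrd12, a Tudor domain helicase that acts in the piRNA amplification cycle, was the most abundant at 10.4 ± 0.184 CPM per kb (SD, n = 2) in ribosome-depleted and 17.5 ± 3.06 in polyA libraries. Mael, a protein of nuage and nucleus that is required for transposon silencing, came next at 8.14 ± 0.445 and 6.39 ± 0.0429 CPM per kb. Asz1, a mitochondrial membrane protein that anchors the piRNA machinery, was lowest in both kits, at 0.107 ± 0.0973 and 0.00885 ± 0.0125 CPM per kb. Between these ends, the ribosome-depleted order was Ddx4, Fkbp6, Piwil2, Mov10l1, Tdrd1, Tdrkh and Tdrd9, and libraries of 4 neighbouring pairs overlapped (Fkbp6 with Piwil2, Mov10l1 with Tdrd1, Tdrd1 with Tdrkh, and Tdrkh with Tdrd9). The polyA order differed only in that Tdrd1 stood before Mov10l1, a pair whose libraries overlapped. At 32 h Mael had passed Tdrd12 in both kits, at 34.1 ± 3.47 and 28.6 ± 0.537 CPM per kb, and its libraries did not overlap those of Tdrd12.

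Most of the genes rose when WT cells left the naive state. In these bulk libraries a change in the number of cells that express a gene cannot be told apart from a change in its RNA per cell. In the ribosome-depleted libraries 7 of 10 were called between 32 h and ESC, all 7 higher, against 25.9% of all 18971 genes in either direction, and the median log2 fold change of the 10 was 1.2 against 0.02 over all genes. In the polyA libraries 6 rose and 1 fell, against 17.9% and 17.8% of 15667 genes, and the median was 1.47 against 0.01. The same 6 genes, Piwil2, Ddx4, Mov10l1, Tdrd1, Tdrkh and Mael, rose in both kits, which share no library.

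Mael stood at 14.6 and 13.6 CPM in the ribosome-depleted ESC libraries and at 54.9 and 63.4 CPM after 32 h, a log2 fold change of 2.06 ± 0.11 (SE; edgeR adjusted p = 1.8e-06). Its polyA levels went from 11.1 and 11 to 50.2 and 48.9 CPM, a log2 fold change of 2.16 ± 0.41 (adjusted p = 0.0013). Both libraries at 32 h stood well above both at ESC in each kit. Tdrd1, the Tudor scaffold that binds Piwil2, went from 2.71 and 4.09 to 14.8 and 17.0 CPM (2.26 ± 0.24, adjusted p = 0.00013) and, with polyA, from 3.33 and 2.5 to 12 in both libraries (2.04 ± 0.47, adjusted p = 0.0045). Piwil2, the PIWI protein also called MILI, went from 6.42 and 7.43 to 18.7 and 19.3 CPM (1.47 ± 0.11, adjusted p = 1.7e-05), with a polyA log2 fold change of 1.59 ± 0.21 (adjusted p = 8.2e-05). Neither Tdrd1 nor Piwil2 had overlapping libraries between the stages.

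The helicases differed among themselves. Ddx4, the mouse homologue of Vasa, went from 12.3 and 11.4 to 22.4 and 23.5 CPM (0.95 ± 0.10, adjusted p = 9.7e-05; polyA 1.18 ± 0.21, adjusted p = 0.00096). Mov10l1, which binds piRNA precursors, went from 2.13 and 3.29 to 6.95 and 7.61 CPM (1.45 ± 0.21, adjusted p = 0.0008; polyA 1.36 ± 0.25, adjusted p = 0.0011). Tdrd12 was nearly level: it went from 45.6 and 44.5 to 54.7 and 60.2 CPM (0.35 ± 0.08, adjusted p = 0.013), and in polyA libraries from 85.4 and 66.7 to 81.0 and 67.1 CPM (adjusted p = 0.86). The Tdrd12 rise was lost without the Zfp281_WT line, at 0.16 (adjusted p = 0.16). Tdrd9, a helicase partner of the nuclear PIWI protein Piwil4, moved the other way, from 1.47 and 1.6 to 0.219 and 0.498 CPM with polyA (-2.07 ± 0.44, adjusted p = 0.0026). Its ribosome-depleted levels of 1.37 and 2.54 against 0.745 and 1.25 CPM gave -0.96 ± 0.44 (adjusted p = 0.16), which passed with the line as a block (-0.95, adjusted p = 0.021).

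Tdrkh, a Tudor and KH domain protein of the mitochondrial membrane that helps to trim piRNAs, went from 3.09 and 3.01 to 16.1 and 13 CPM in polyA libraries (2.25 ± 0.30, adjusted p = 0.0001). In ribosome-depleted libraries it went from 1.34 and 3.49 to 6.39 and 7.27 CPM (1.53 ± 0.40, adjusted p = 0.019), and leaving out either 32 h library lost the call (adjusted p = 0.055 and 0.07) while leaving out the ESC library of the line named WT left 0.96 (adjusted p = 0.026). Fkbp6, a co-chaperone needed for piRNA amplification, stayed at 3.36 and 1.50 against 2.58 and 1.97 CPM, and its change passed in neither kit (adjusted p = 0.92 and 0.28). Asz1 stayed near the limit of detection, with 4 and 10 counts at ESC and 9 and 18 at 32 h in the ribosome-depleted set and 0 to 5 counts in each polyA WT library. Without the Zfp281_WT line 6 of the 10 genes rose and 0 fell, while 44.3% of 16408 genes were called in either direction.

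**Figure D1:**
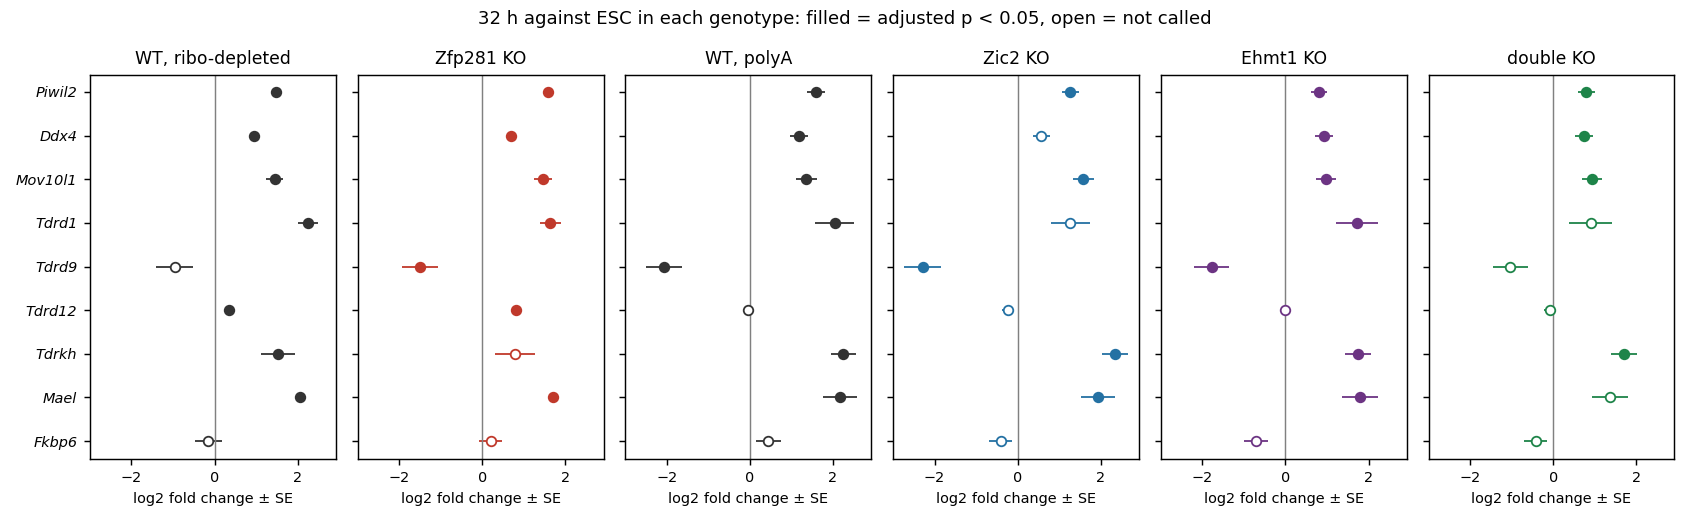
Log2 fold change between 32 h and ESC (x axis, ± SE) for 9 genes (y axis) in each genotype, with filled points for an edgeR adjusted p under 0.05 and open points otherwise; Asz1, at 0 to 5 counts in polyA WT libraries, is left out. Mael, Tdrd1, Piwil2, Ddx4, Mov10l1 and Tdrkh lie to the right of 0 in all 6 panels and Tdrd9 to the left, while Tdrd12 lies between -0.23 and 0 in the 4 polyA panels.

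Loss of Zfp281, a zinc finger transcription factor studied here for its role in the exit from naive pluripotency, went with a lower level of Ddx4 and Tdrkh and a higher level of Fkbp6 at all 3 stages, and at 16 h with a difference in all 10 genes. At ESC 4 of 10 were lower and 1 was higher in Zfp281 KO than in WT cells, against 5.30% of all genes that were lower and 8.50% that were higher. At 16 h, a table that was tested on its own, all 10 were called, 7 lower and 3 higher, against 13.3% and 15.3% of 15139 genes. At 32 h 4 were lower and 1 higher, against 11.9% and 16.6%. Without the Zfp281_WT line 9 genes were called at ESC and 8 at 32 h, against 33.6% and 48.2% of genes in either direction; the lone WT library was then assumed to vary like the KO groups. At ESC, 1 call was left without KO line 1 and 0 without KO line 2, so the ESC count rests on both.

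Tdrkh differed most among the genes that were lower. Its WT and KO levels were 1.34 and 3.49 against 0.483 and 0.521 CPM at ESC, 3.36 and 2.96 against 0.967 and 0.752 at 16 h, and 6.39 and 7.27 against 0.705 and 1.04 at 32 h. The log2 fold changes were -2.22 ± 0.46 at ESC (adjusted p = 0.012), -1.87 ± 0.26 at 16 h (0.0013) and -2.97 ± 0.43 at 32 h (0.00095). Its KO libraries lay below every WT library at each stage, and without the Zfp281_WT line the ESC value was -1.47 (adjusted p = 0.0036).

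Ddx4 was at 12.3 and 11.4 CPM in WT against 6.79 and 6.71 in KO at ESC, at 20.0 and 24.4 against 9.43 and 10.4 at 16 h, and at 22.4 and 23.5 against 11.2 and 10.4 at 32 h. These are log2 fold changes of -0.81 ± 0.10, -1.17 ± 0.14 and -1.08 ± 0.10 (adjusted p = 0.0011 at ESC, 0.00061 at 16 h and 6.8e-05 at 32 h). Ddx4 passed at all 3 stages, and only the ESC call was lost when KO line 2 was left out (adjusted p = 0.057). Tdrd1 was at 2.71 and 4.09 against 1.45 and 2.02 CPM at ESC, which did not pass (-0.93 ± 0.27), although it did with DESeq2 (adjusted p = 0.046) and without the Zfp281_WT line (-0.71, adjusted p = 0.048). At 16 h its levels were 8.81 and 9.35 against 3.66 and 4.13 CPM (-1.22 ± 0.17, adjusted p = 0.0012). At 32 h they were 14.8 and 17.0 against 4.51 and 6.37 CPM (-1.55 ± 0.23, adjusted p = 0.00097). Tdrd1 KO libraries were thus below WT at each stage.

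Mael was lower at 16 h, with 25.9 and 32.5 CPM in WT and 18.4 and 19.2 in KO (-0.64 ± 0.13, adjusted p = 0.0077). It was also lower at 32 h, with 54.9 and 63.4 against 34.7 and 38.2 CPM (-0.70 ± 0.10, adjusted p = 0.00083), and at ESC the difference of -0.35 ± 0.11 did not pass (adjusted p = 0.066). Piwil2 was lower at ESC (-0.42 ± 0.12, adjusted p = 0.046), where its call was lost with DESeq2 (adjusted p = 0.12). At 16 h Piwil2 was at 18.4 and 19.3 against 10 and 11.9 CPM (-0.79 ± 0.13, adjusted p = 0.0032), and at 32 h the difference was -0.30 ± 0.11 (adjusted p = 0.062). Tdrd12 was at 45.6 and 44.5 against 31.6 and 29.5 CPM at ESC (-0.56 ± 0.08, adjusted p = 0.0029) and at 54.8 and 73.4 against 38.8 and 40.0 at 16 h (-0.70 ± 0.14, adjusted p = 0.0068), whereas its 32 h libraries overlapped. With all libraries kept, Mov10l1 passed only at 16 h, at 5.68 and 5.78 against 3.63 and 3.69 CPM (-0.65 ± 0.18, adjusted p = 0.025). That call was lost with DESeq2 (adjusted p = 0.1) and without either KO line. For these 4 genes the size of the difference was under 1 on the log2 scale at each stage. Without the Zfp281_WT line Mael was at -0.47 at ESC, and at 32 h Piwil2 was at -0.31 and Mov10l1 at -0.42.

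Fkbp6, Asz1 and Tdrd9 were higher. Fkbp6 was at 3.36 and 1.50 CPM in WT against 6.52 and 5.52 in KO at ESC, at 3.45 and 2.22 against 7.42 and 5.88 at 16 h, and at 2.58 and 1.97 against 7.26 and 6.60 at 32 h. The log2 fold changes were 1.25 ± 0.30, 1.23 ± 0.24 and 1.6 ± 0.31 (adjusted p = 0.025 at ESC, 0.0064 at 16 h and 0.0041 at 32 h). The ESC value was 0.77 without the Zfp281_WT line and 2.13 without the other WT library, so its size depends on the WT line, while every KO library was above every WT library. Asz1 was at 0.408 and 0.171 CPM (13 and 6 counts) against 1.17 and 1.13 CPM (34 and 33 counts) at 16 h, a log2 fold change of 2.00 ± 0.43 (adjusted p = 0.0095). At ESC Asz1 was at 0.109 and 0.498 CPM in WT against 1.24 and 0.736 CPM in KO, and at 32 h at 0.279 and 0.681 against 1.23 and 1.07 CPM. Neither passed (1.75 ± 0.87, adjusted p = 0.22, and 1.27 ± 0.84, adjusted p = 0.31), and both did without the Zfp281_WT line (3.07, adjusted p = 0.0014, and 2.00, adjusted p = 0.0048). Tdrd9 was higher at 16 h, at 1.35 and 1.33 CPM against 0.376 and 0.370 in WT (1.83 ± 0.34, adjusted p = 0.0046). Its libraries overlapped between genotypes at ESC and 32 h. The Tdrd9 value at ESC was 0.51 with all libraries and 0.94 without the Zfp281_WT line.

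**Figure D2:**
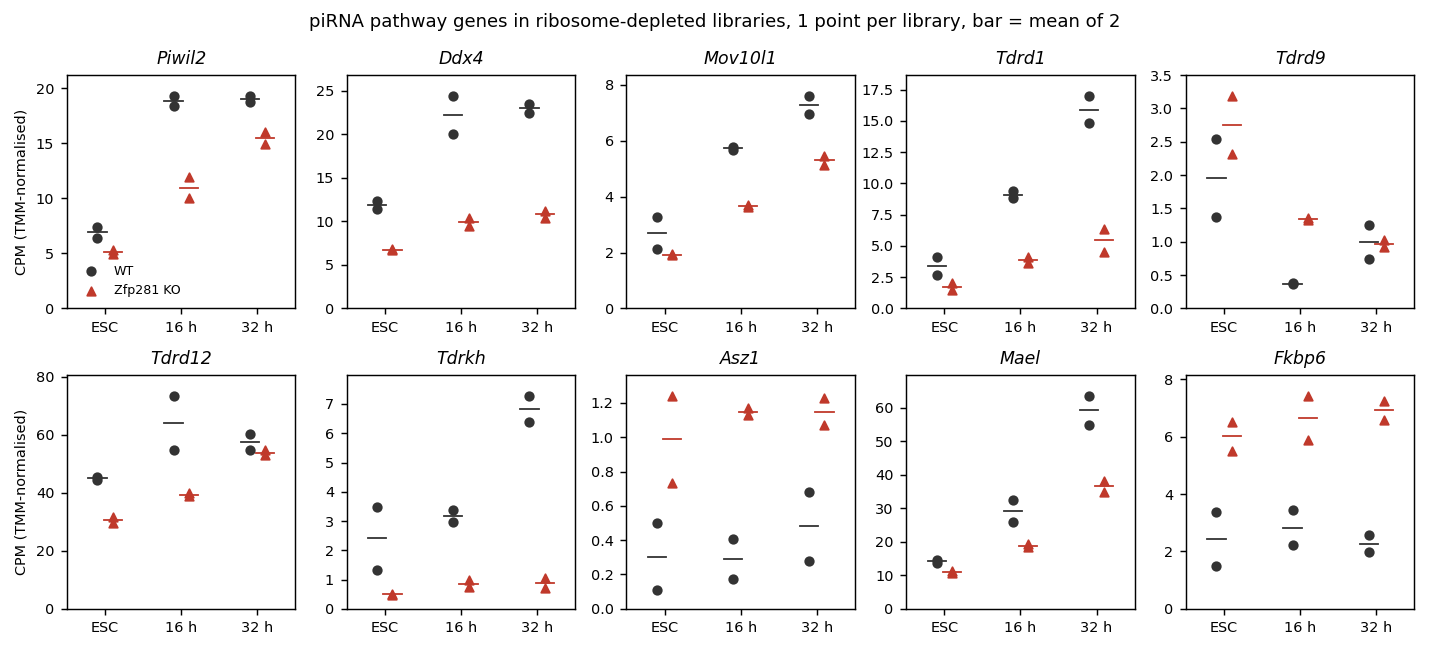
CPM (y axis, from 0) of each gene in every ribosome-depleted library of WT (circles) and Zfp281 KO (triangles) cells at ESC, 16 h and 32 h (x axis); bars are means of 2 libraries, and the 16 h table was normalised separately, so levels are compared between genotypes within a stage. Ddx4, Tdrd1, Tdrkh and Mael KO libraries lie below WT, and Fkbp6 KO libraries (5.52 to 7.42 CPM) lie above WT (1.50 to 3.45 CPM) at each stage.

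**Figure D3:**
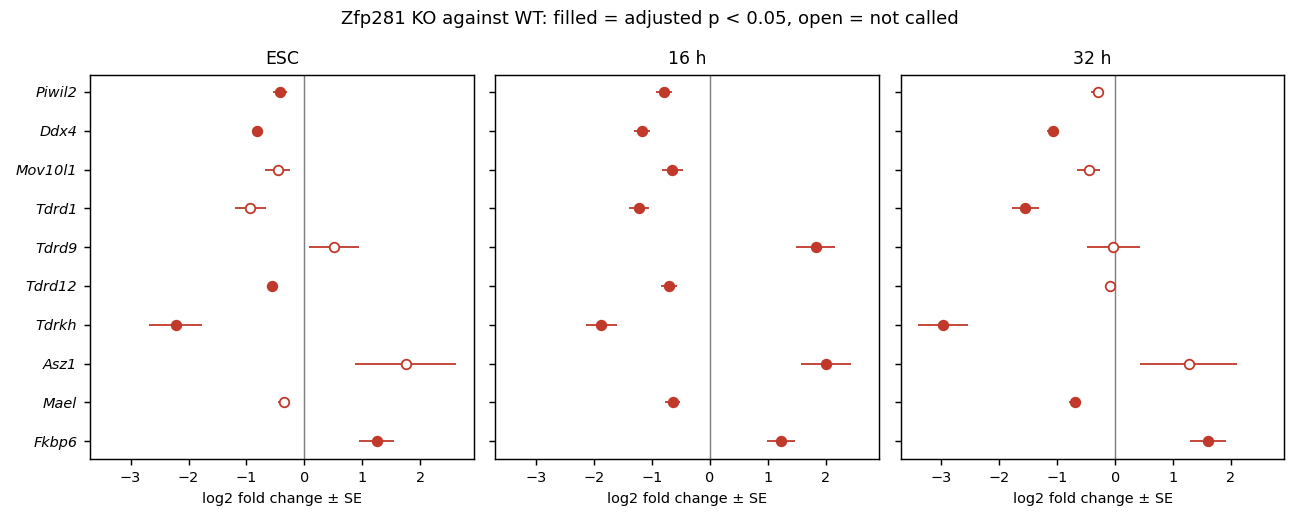
Log2 fold change of Zfp281 KO against WT (x axis, ± SE) for the 10 genes (y axis) at ESC, 16 h and 32 h, with filled points for an edgeR adjusted p under 0.05. All 10 points are filled at 16 h, and Tdrkh lies farthest to the left at each stage, at -2.22, -1.87 and -2.97.

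The genes still responded to 2i removal without Zfp281. In KO cells 7 of 10 were called between 32 h and ESC, against 24.7% of all genes, with 6 higher and 1 lower. Mael went from 10.8 and 11.4 to 34.7 and 38.2 CPM (1.71 ± 0.11, adjusted p = 9e-06) and Piwil2 from 4.98 and 5.30 to 14.9 and 16.0 CPM (1.59 ± 0.11, adjusted p = 2e-05). Tdrd12 went from 31.6 and 29.5 to 54.8 and 52.9 CPM (0.82 ± 0.08, adjusted p = 0.00015). In Tdrkh, the response of 0.79 ± 0.48 did not pass (adjusted p = 0.3). For the difference between the KO and WT responses, edgeR called 0 of the 10 genes, against 4.15% of all genes; 2 genes had an unadjusted p under 0.05, and DESeq2 called 0. With the line as a block 1 gene was called, against 13.7% of all genes: the response of Tdrd12 was larger in KO cells by 0.47 (adjusted p = 0.0064). Without the Zfp281_WT line 2 were called, against 18.2% of all genes, with Tdrd12 at 0.59 (adjusted p = 0.0014) and Tdrkh at -1.44 (adjusted p = 0.035).

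Loss of Ehmt1, which forms the H3K9 methyltransferase complex GLP/G9a with Ehmt2, went with a high level of Asz1, a gene with almost no counts in WT cells. Asz1 had 0 and 1 counts in the WT libraries at ESC and 0 and 5 at 32 h, where a count of 0 allows up to 3 counts (0.143 CPM at ESC, counting error only). The Zic2 KO libraries had 2 and 1 counts at ESC and 2 and 4 at 32 h. Without Ehmt1, Asz1 was at 7.71 and 12.2 CPM in the ESC libraries (168 and 231 counts) and at 6.56 and 8.33 CPM after 32 h. In double KO cells the ESC levels were 11.5 and 9.73 CPM, and the 32 h levels 5.97 and 7.66 CPM. All 8 libraries without Ehmt1 were thus far above all 8 polyA libraries with it.

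The Asz1 ratio of Ehmt1 KO to WT was 401 at ESC (exact 95% interval 71.6 to 15900, counting error only; edgeR adjusted p = 4.6e-06) and 70.5 at 32 h (29.9 to 218; adjusted p = 1.4e-05). For the double KO the ratios to the same WT libraries were 437 (78.0 to 17300; adjusted p = 3.9e-06) and 63.6 (27.0 to 197; adjusted p = 1.2e-05). Against Zic2 KO cells, which share no library with those comparisons of Ehmt1 KO and WT, the double KO ratios were 144 (49.0 to 702; adjusted p = 6.3e-06) and 54.4 (24.8 to 149; adjusted p = 1.4e-05). All counts of Asz1 in WT came from the Zic2_WT line; without it WT had 0 counts, and against the limit of 3 counts in that library the level was at least 69.8-fold higher in Ehmt1 KO at ESC and at least 56.6-fold higher at 32 h. Per kilobase, Asz1 in Ehmt1 KO at ESC (3.52 ± 1.12 CPM per kb, SD, n = 2) stood between Fkbp6 (5.02 ± 1.9) and Ddx4 (2.78 ± 0.174) and overlapped both. In the Zfp281 KO libraries, which were made with the other kit, Asz1 did not exceed 1.24 CPM.

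**Figure D4:**
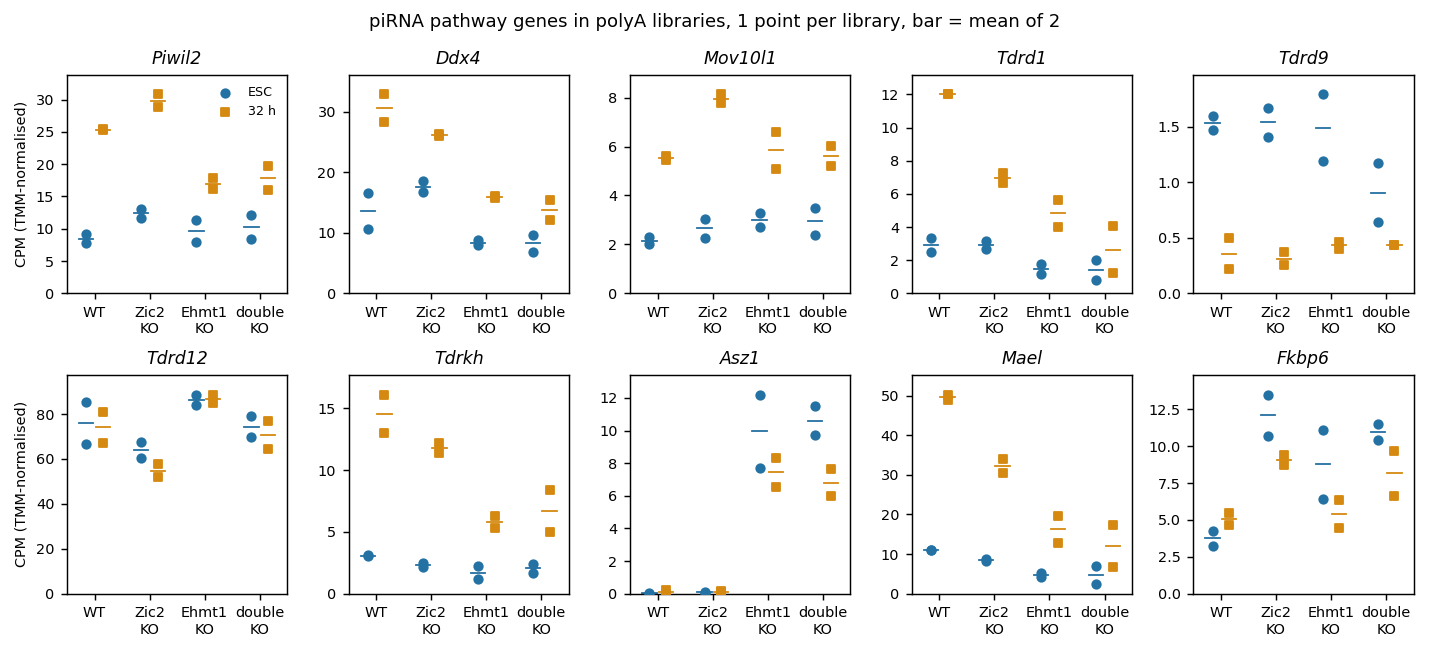
CPM (y axis, from 0) of each gene in every polyA library at ESC (circles) and 32 h (squares) in WT, Zic2 KO, Ehmt1 KO and double KO cells (x axis); bars are means of 2 libraries. Asz1 is at most 0.207 CPM in WT and Zic2 KO and at least 5.97 CPM without Ehmt1. Mael at 32 h is at 48.9 and 50.2 CPM in WT, 30.5 and 34.1 CPM in Zic2 KO and between 6.67 and 19.7 CPM without Ehmt1.

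Besides Asz1, Fkbp6 was higher at ESC, and none of the other 8 genes was called higher at either stage. At ESC 2 of 10 were higher and 1 lower in Ehmt1 KO than in WT cells, against 14.8% and 12.1% of all genes, so these counts were close to those shares. At 32 h 1 was higher and 5 were lower, against 15.1% and 11.4%. The calls that accompany Asz1 at ESC were Fkbp6, at 11.1 and 6.44 CPM against 3.23 and 4.26 in WT (1.23 ± 0.29, adjusted p = 0.0079), and Ddx4, at 8.76 and 8.02 against 10.6 and 16.6 CPM (-0.69 ± 0.22, adjusted p = 0.034). The Ddx4 call was lost without the Zic2_WT library (-0.30, adjusted p = 0.35) or either KO line (adjusted p = 0.1 and 0.15), and the Fkbp6 call without KO line 1 (0.78, adjusted p = 0.11) or the Ehmt1_WT library (1.05, adjusted p = 0.079).

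At 32 h the genes that were lower in Ehmt1 KO were Mael, Tdrkh, Tdrd1, Ddx4 and Piwil2, all of which rise in WT cells. Mael was at 12.9 and 19.7 CPM against 50.2 and 48.9 in WT (-1.60 ± 0.40, adjusted p = 0.01). Tdrkh was at 5.30 and 6.26 against 16.1 and 13 CPM (-1.33 ± 0.29, adjusted p = 0.0045). Ddx4 was at 15.8 and 16.1 against 28.4 and 32.9 CPM (-0.94 ± 0.21, adjusted p = 0.0056). No library of Ehmt1 KO overlapped WT for these genes. Tdrd1, at 4 and 5.66 against 12 CPM in both WT libraries, passed narrowly (-1.31 ± 0.45, adjusted p = 0.046), as did Piwil2, at 16.1 and 17.9 against 25.4 and 25.3 CPM (-0.58 ± 0.20, adjusted p = 0.047). Both lost the call when any of the 4 libraries was left out (adjusted p up to 0.22), and 3 genes were left without the Zic2_WT library, where Ddx4 was also lost (-0.83, adjusted p = 0.053), or without KO line 1, where Mael was also lost (-1.33, adjusted p = 0.089).

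The double KO was also compared with Zic2 KO, which shares no library with the comparison of Ehmt1 KO and WT. The labels do not say in which order the genes of the double KO were altered. At ESC the double KO differed from Zic2 KO in 1 higher (Asz1) and 1 lower gene, counts that were not above the 19.0% and 15.2% of all genes. The lower gene was Ddx4, at 6.92 and 9.63 against 18.6 and 16.7 CPM (-1.09 ± 0.22, adjusted p = 0.0023). Fkbp6 was not called, at 11.5 and 10.4 against 13.5 and 10.7 CPM. At 32 h Asz1 was the 1 gene that was higher and 5 were lower, against 20.0% and 15.9%. These were Mael at 6.67 and 17.4 against 30.5 and 34.1 CPM (-1.43 ± 0.40, adjusted p = 0.015), Tdrd1 at 1.21 and 4.05 against 7.29 and 6.63 CPM (-1.41 ± 0.46, adjusted p = 0.03), and Ddx4 at 12.1 and 15.5 against 26.3 and 26.0 CPM (-0.93 ± 0.21, adjusted p = 0.0047). Piwil2 was at 16.0 and 19.7 against 30.8 and 28.8 CPM (-0.74 ± 0.20, adjusted p = 0.012). Tdrkh was at 4.96 and 8.36 against 12.2 and 11.4 CPM (-0.83 ± 0.28, adjusted p = 0.036). These are the 5 genes that were lower in Ehmt1 KO against WT at 32 h. They stood lower in double KO line 1 than in line 2. Without line 1 none of the 5 passed at 32 h, with Mael at -0.89, Tdrd1 at -0.77, Ddx4 at -0.75, Piwil2 at -0.59 and Tdrkh at -0.49 (adjusted p from 0.054 to 0.25), and without line 2 Tdrd1 was at -2.49 and Mael at -2.25. Without either Zic2 KO line 2 of the 5 were left, and Asz1.

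**Figure D5:**
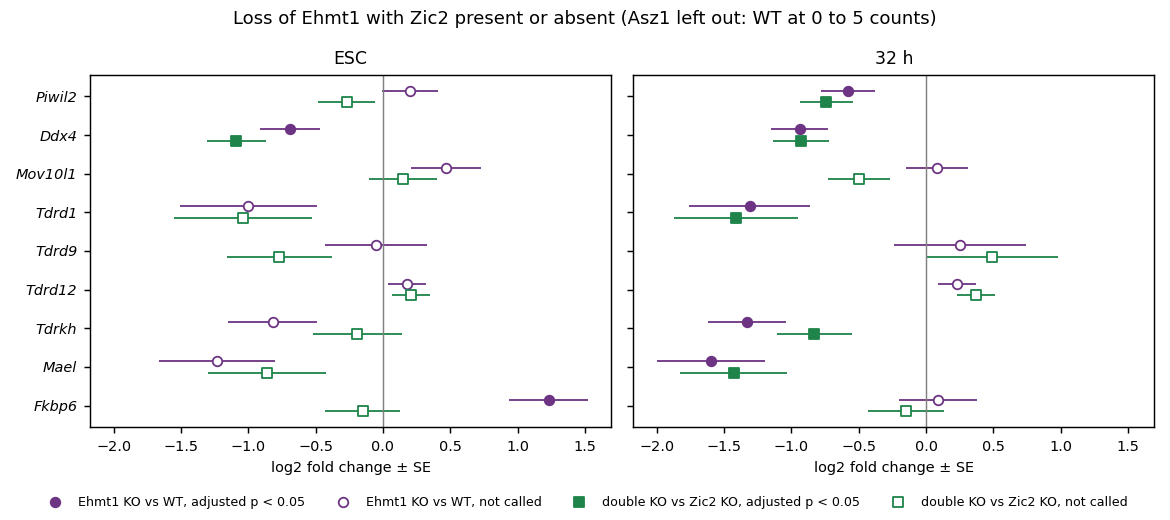
Log2 fold change with loss of Ehmt1 (x axis, ± SE) for 9 genes (y axis), as Ehmt1 KO against WT (circles) and double KO against Zic2 KO (squares), at ESC and 32 h; filled points have an edgeR adjusted p under 0.05, and Asz1 is left out because WT had 0 to 5 counts. At 32 h Piwil2, Ddx4, Tdrd1, Tdrkh and Mael are filled and left of 0 in both comparisons.

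For Zic2, a zinc finger transcription factor, Zic2 KO was compared with WT and double KO with Ehmt1 KO, and few of the genes were called. Fkbp6 was the 1 gene called in Zic2 KO against WT at ESC, against 0.274% of all genes in either direction. It was at 13.5 and 10.7 CPM against 3.23 and 4.26 in WT (1.69 ± 0.29, adjusted p = 0.039), and the call was lost without either KO line (adjusted p = 0.22 and 0.2) or without the Ehmt1_WT library (adjusted p = 0.34). At 32 h edgeR called 0 genes, against 0.0766% of all genes, with 3 at an unadjusted p under 0.05 and 0 called by DESeq2. A fit to these 2 groups alone called 5 of the 8 it tested, against 10.6% of all genes. Zic2 KO and WT libraries did not overlap for several genes at 32 h. Among them, Mael was at 30.5 and 34.1 against 50.2 and 48.9 CPM in WT. Tdrd1 was at 7.29 and 6.63 against 12 CPM in both WT libraries, and Fkbp6 at 8.76 and 9.42 against 4.65 and 5.48 CPM. The 0 calls therefore do not show that levels were unchanged. Between double KO and Ehmt1 KO edgeR called 0 genes at either stage, against 0.0957% and 0.223% of all genes, with 0 at an unadjusted p under 0.05 and 0 by DESeq2. The differences between these genotypes ran from -0.72 ± 0.39 (Tdrd9) to 0.31 ± 0.28 (Fkbp6) on the log2 scale at ESC and from -0.88 ± 0.46 (Tdrd1) to 0.60 ± 0.28 (Fkbp6) at 32 h.

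Against WT, double KO cells had 2 genes higher and 2 lower at ESC, against 20.9% and 18.5% of all genes, so these counts were close to those shares. At 32 h 1 was higher and 4 were lower, against 21.4% and 17.8%. These comparisons use the same WT libraries as those of Ehmt1 KO and Zic2 KO. Fkbp6 was at 11.5 and 10.4 CPM at ESC (1.55 ± 0.29, adjusted p = 0.0014), and Ddx4 at 6.92 and 9.63 CPM (-0.71 ± 0.22, adjusted p = 0.021), a value that was -0.33 (adjusted p = 0.26) without the Zic2_WT library. Mael at ESC was at 2.52 CPM in line 1 and 6.86 in line 2 against 11.1 and 11 in WT (-1.24 ± 0.43, adjusted p = 0.036), and it was at -0.68 (adjusted p = 0.25) without line 1, at -2.15 without line 2, and lost without either WT library (adjusted p = 0.12 and 0.097). At 32 h Tdrd1 had the largest fall (-2.19 ± 0.46, adjusted p = 0.0027), followed by Mael (-2.05 ± 0.41, adjusted p = 0.0018), Ddx4 (-1.15 ± 0.21, adjusted p = 0.0011) and Tdrkh (-1.13 ± 0.28, adjusted p = 0.0071). The Tdrkh call was lost without line 1 (-0.79, adjusted p = 0.072) or without the Ehmt1_WT library (-0.97, adjusted p = 0.062). The Zic2 transcript also differed between the double KO lines, at 141 and 208 CPM in line 1 and 66.5 and 77.3 in line 2, and its part in these differences was not tested.

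Cells without Ehmt1 or Zic2 still changed these genes on 2i removal. In Ehmt1 KO 7 were called (22.5% of all genes), 6 higher and Tdrd9 lower at 0.465 and 0.399 against 1.19 and 1.79 CPM (-1.78 ± 0.43, adjusted p = 0.0098). This count fell to 3 without the 32 h library of KO line 2 and to 4 without either ESC library. In Zic2 KO 5 were called (30.9% of all genes), with Mael, Piwil2, Mov10l1 and Tdrkh higher and Tdrd9 lower (-2.29 ± 0.44, adjusted p = 0.0016), and 7 with the line as a block (42.5% of all genes). Double KO cells had 4 called (14.4% of all genes), namely Piwil2, Ddx4, Mov10l1 and Tdrkh, all higher. With the line as a block 7 were called (27.5% of all genes), among them Mael, from 2.52 and 6.86 to 6.67 and 17.4 CPM (1.37, adjusted p = 1.8e-05, against 1.36 ± 0.43 and adjusted p = 0.051 without the block). Asz1 was then lower at 32 h than at ESC by 0.65 on the log2 scale (adjusted p = 0.03). Without line 1 at ESC or line 2 at 32 h, 1 gene was left.

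The tests of whether a KO response differed from that of WT called 0 genes for Ehmt1 KO (1.86% of all genes), 0 for Zic2 KO (0% of all genes) and 0 for double KO (5.29% of all genes) with edgeR. Unadjusted p-values under 0.05 were found for 2, 0 and 1 genes, and DESeq2 called 0 in each. With the line as a block Fkbp6 was called for Ehmt1 KO (1 gene, against 8.69% of all genes), as its level went from 11.1 and 6.44 to 6.37 and 4.46 CPM in KO and from 3.23 and 4.26 to 4.65 and 5.48 CPM in WT (-1.12, adjusted p = 0.02). For the double KO 4 genes were called with the block, against 16.7% of all genes. They were Tdrd1 (-1.18, adjusted p = 0.021), Fkbp6 (-0.87, adjusted p = 0.036), Mael (-0.80, adjusted p = 0.017) and Piwil2 (-0.78, adjusted p = 0.033), each with a smaller rise or a fall in double KO cells.

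A wider list of 18 further genes of the pathway that were found in the tables was tested in the same fits. In Ehmt1 KO 8 of 18 were higher and 0 lower at ESC, and 6 higher and 0 lower at 32 h, against 14.8% and 12.1% of all genes at ESC and 15.1% and 11.4% at 32 h, with medians of 0.74 and 0.28 against -0.01 and 0 over all genes. Gtsf1, a zinc finger partner of PIWI proteins, was at a mean of 10.4 CPM against 0.753 in WT at ESC (3.77 ± 0.36, adjusted p = 1.1e-05) and at 16.1 against 1.75 at 32 h (3.20 ± 0.32, adjusted p = 2.1e-05). Gpat2, which acts in piRNA biogenesis, was at 17.1 against 1.62 CPM at ESC (3.40 ± 0.41, adjusted p = 6.7e-05). Morc1, a nuclear factor of transposon silencing, was at 281 against 144 CPM at ESC (0.97 ± 0.15, adjusted p = 0.00045) and 254 against 93.2 CPM at 32 h (1.44 ± 0.15, adjusted p = 3e-05). The Tudor gene Rnf17 was at 63.5 against 36.8 CPM at ESC (0.79 ± 0.14, adjusted p = 0.0016), and Piwil4, the nuclear PIWI protein MIWI2, at 3.41 against 1.16 CPM at 32 h (1.54 ± 0.36, adjusted p = 0.0066), a call that was lost without the Ehmt1_WT library (1.19, adjusted p = 0.086). Double KO cells had 10 higher and 2 lower at ESC and 8 higher and 2 lower at 32 h, against the same WT libraries (20.9% and 18.5% of all genes at ESC, 21.4% and 17.8% at 32 h).

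In Zfp281 KO cells 5 of 18 were higher and 4 lower at ESC (8.50% and 5.30% of all genes), and 6 higher and 3 lower at 32 h (16.6% and 11.9%). At 16 h, where 17 were tested, 5 were higher and 5 lower (15.3% and 13.3%). Gpat2 was at 9.20 against 2.36 CPM at ESC (1.91 ± 0.26, adjusted p = 0.0018) and at 13 against 2.98 CPM at 32 h (2.11 ± 0.25, adjusted p = 0.00034). Mybl1, the transcription factor of pachytene piRNA genes, was at 108 against 48.7 CPM at 32 h (1.15 ± 0.13, adjusted p = 0.00019), and Morc1 at 389 against 119 CPM (1.71 ± 0.16, adjusted p = 0.0001). Tex15, which acts in nuclear silencing, was lower at ESC, at 36.3 against 62.9 CPM (-0.79 ± 0.09, adjusted p = 0.0008), as was Tdrd5 (-0.89 ± 0.14, adjusted p = 0.0041; -0.77 and adjusted p = 0.061 without KO line 2). On 2i removal in WT cells 6 of 18 rose and 1 fell in ribosome-depleted libraries (25.9% of all genes in either direction), and 7 rose and 3 fell in polyA libraries (17.9% and 17.8%). Rnf17 rose in both (1.07 ± 0.10, adjusted p = 7.8e-05, and 1.02 ± 0.14, adjusted p = 0.00016). Of the 18 genes, 1 was called in Zic2 KO against WT (0.274% of all genes at ESC), Dnmt3l at ESC, at 83.7 against 266 CPM (-1.67 ± 0.24, adjusted p = 0.016), and it was lost without either KO line (adjusted p = 0.12 and 0.31) or the Ehmt1_WT library (adjusted p = 0.13).

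Repressors of germ line genes, a list of 13, also differed between the groups. The DNA methyltransferase genes Dnmt3a and Dnmt3b rose in WT cells at 32 h (2.05 ± 0.10 and 2.72 ± 0.11 in ribosome-depleted libraries, adjusted p = 1.5e-06 and 7.6e-07), at the stage where 7 of the 10 piRNA genes were higher. The Ehmt1 transcript rose as well, from 112 and 97.3 to 173 and 160 CPM and, with polyA, from 80.3 and 93.4 to 149 and 154 CPM. In WT 3 of 13 repressors rose and 1 fell in ribosome-depleted libraries (25.9% of all genes in either direction). In polyA libraries 3 rose and 3 fell (17.9% and 17.8%). Dnmt3a and Dnmt3b were lower in Zfp281 KO at each stage. At 16 h Dnmt3a was at 115 against 568 CPM (-2.30 ± 0.10, adjusted p = 1e-05) and Dnmt3b at 216 against 579 CPM (-1.42 ± 0.09, adjusted p = 4.1e-05). The other repressors called at 32 h in Zfp281 KO were higher, namely L3mbtl2 (1.15), Ehmt2 (0.71), Mga (0.55), Max (0.52) and Uhrf1 (0.50). L3mbtl2 was also higher at ESC (0.42) and 16 h (0.45). At 16 h Ehmt2 was at 0.30, Ehmt1 at -0.35 and Dnmt1 at -0.25. Of 13 repressors, 5 were higher and 2 lower at 32 h (16.6% and 11.9% of all genes). At 16 h 2 were higher and 4 lower (15.3% and 13.3%). The calls on Mga, Max and Uhrf1 at 32 h were lost under some alternative. So were those at 16 h apart from Dnmt3a and Dnmt3b, and those on L3mbtl2 and Dnmt3b at ESC. E2f6, a PRC1.6 subunit, was lower in Ehmt1 KO, at 27.0 against 40.7 CPM at ESC (-0.59 ± 0.13, adjusted p = 0.0045) and 24.2 against 47.8 CPM at 32 h (-0.98 ± 0.13, adjusted p = 0.00017). With Ehmt1 itself, 5 of 13 repressors were called in Ehmt1 KO at ESC, among them Dnmt3b (0.62), Dnmt3a (-0.46) and Pcgf6 (-0.33), and 4 at 32 h, among them L3mbtl2 (0.51) and Max (0.45). These were 1 higher and 4 lower at ESC (14.8% and 12.1% of all genes) and 2 higher and 2 lower at 32 h (15.1% and 11.4%), and the share at 32 h was close to that of all genes. The calls on Dnmt3a and Dnmt3b at 16 h and on E2f6 at 32 h held with any 1 library left out, while 116 of 344 such refits over all repressor calls lost the call. Whether any of them bears on the piRNA genes was not tested.

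Across the 16 polyA libraries the genes fell into a group that moved together and others that did not; correlations of log2(CPM + 0.5) are given as a description, since the libraries share stage and genotype. Mael and Tdrd1 had r = 0.98, Mael and Tdrkh 0.93, Mael and Ddx4 0.92, and Piwil2 and Tdrkh 0.93. Tdrd9 ran against Mov10l1 (-0.85) and Tdrkh (-0.84). Asz1 was negative with Ddx4 (-0.70), and its highest value among the members was 0.52, with Tdrd12. The 3 genes outside the pathway most like Asz1, of 12735 searched, were Ddx60, Samd7 and Pkd2l1 (r = 0.99 each). Ddx60 was at 0.0475 to 0.419 CPM at ESC in the 4 libraries with Ehmt1 and at 66.7 to 106 CPM in the 4 without it. Ovol1 (0.98), Has2 (0.97) and Arhgap29 (0.97) were most like Mael, and Tlcd3b (0.98) was most like Tdrkh. For Tdrd9 they were T, the mesoderm factor Brachyury, Slc38a7 and Rnf185 (0.96 each), and for Fkbp6 Wdr91 (0.87), Phlpp2 and Elavl2 (0.84 each).

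Markers of other cell types were measured in the same libraries. Of 4 spermatid markers, summed CPM at ESC was 0 in both polyA WT libraries and 0.183 at most in those without Ehmt1. At 32 h it was 0.0439 and 0.124 in polyA WT and 0.438 at most without Ehmt1. In ribosome-depleted libraries the highest sum was 2.44, in the Zfp281_WT line at ESC. A further 10 germ cell markers, of which 9 or 10 had a count in every library, had a summed CPM of 54.0 and 61.5 in the ribosome-depleted WT libraries of the ESC stage. After 32 h without 2i the sum was 123 and 120, and in Zfp281 KO cells it went from 63.2 and 64.0 to 104 in both lines. These markers were thus higher at the stage where 7 of the 10 piRNA genes were higher in WT cells, whereas polyA WT libraries had sums of 62.6 and 72.8 at 32 h. The ESC sums in polyA libraries were 64.6 and 60.6 CPM in WT, 58.6 and 51.7 in Ehmt1 KO, 104 and 105 in Zic2 KO, and 121 and 72.9 in double KO. Oocyte markers (4 genes) went the other way. Their sum went from 9.62 and 11.1 CPM at ESC to 2.76 and 3.63 at 32 h in ribosome-depleted WT libraries. In polyA WT it went from 33.0 and 20.8 to 6.01 and 4.69 CPM, and in Zfp281 KO from 17.0 and 16.5 to 8.6 and 7.6. Markers of the 2-cell-like state (4 genes) summed to 0.301 to 0.808 CPM in WT, 2.65 to 3.5 in Zic2 KO and 4.86 to 21.1 without Ehmt1 at ESC, and to 0.832 to 3.60 in WT against 15.1 to 15.3 in Zfp281 KO at 32 h. In polyA libraries primitive endoderm markers (4 genes) summed to 6.51 to 8.65 CPM in WT and 1.42 to 2.63 CPM without Ehmt1 at ESC. At 32 h the sums overlapped, at 9.37 to 11.4 CPM in WT and 2.09 to 11.1 CPM without Ehmt1. The part of all these markers in the results was not tested.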

How the data were processed

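RNA-seq of 28 libraries was analysed from gene counts deposited by the authors, whole-number counts per Entrez gene that were not normalised. The submitters' processing notes name the build GRCm38/mm10 and the tool edgeR. No aligner, counter or strand setting is given in the sources used here. Symbols came from RefSeq (24061 of 24116 rows matched) and exonic lengths from GENCODE. Ribosome-depleted (ESC and 32 h), 16 h and polyA libraries were fitted separately in edgeR 4.0.16 (R 4.3.3; TMM, quasi-likelihood F test, minimum count 10, Benjamini-Hochberg adjustment over all genes, called at 0.05), with 18971, 15139 and 15667 genes. CPM used TMM library sizes, and SE is the log2 fold change over the root of F. The test was checked on simulated data with the same spread for every gene and with changes only in well counted genes. That check does not cover genes with few counts or the spread between lines. The 10 genes and all lists were chosen with earlier results of these data known. In every comparison all 10 were examined, of the wider list at most 4 called genes with the smallest adjusted p are named, called repressors are given as values, and the 3 most alike genes were taken by Pearson r of log2(CPM + 0.5) over polyA libraries with a mean of at least 1 CPM. Lines pair the stages by their titles, and deviations of same-line libraries correlated at 0.84 (WT) and 0.12 (Zfp281 KO) in ribosome-depleted and at 0.06 to 0.58 in polyA libraries. Alternatives were DESeq2 (1.42.0), its size factors, no filter, only the groups compared, the line as a block, leaving out the Zfp281_WT line, and leaving out each library.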

Additional observations from a re-analysis of the deposited data

Results flagged for a closer look

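Without Zfp281 the change from ESC to 32 h differed from WT in 2 of 18 wider pathway genes and 3 of 13 repressors by edgeR. The share of all genes was 4.15%. In double KO cells 1 of 18 and 2 of 13 were called, against 5.29% of all genes, and the 1 of 18 was close to that share. Neither Ehmt1 KO nor Zic2 KO had a call in these lists (1.86% and 0% of all genes). None of the 10 genes was called. Without Zfp281, Dnmt3l, a cofactor of DNA methylation, rose more than in WT cells, by 0.74 ± 0.13 on the log2 scale (adjusted p = 0.015), and Tex15, at 62.9 and then 44.4 CPM in WT and at 36.3 and then 39.5 CPM in KO, differed by 0.63 ± 0.13 (adjusted p = 0.03). The log2 changes of L3mbtl2 (0.73 ± 0.12, adjusted p = 0.011) and Max (0.57 ± 0.13, adjusted p = 0.042) were also shifted upward without Zfp281, and that of Dnmt3b downward (-0.68 ± 0.15, adjusted p = 0.037). Leaving out any 1 Zfp281 KO library lost each of these 5 calls. In double KO cells Rnf17 stood at 81.9 CPM at ESC and 79.5 CPM at 32 h, against 36.8 and 74.5 CPM in WT, a difference of -1.06 ± 0.20 (adjusted p = 0.01; -0.93 and adjusted p = 0.06 without the Ehmt1_WT library at 32 h). Dnmt3b rose less in double KO than in WT cells, a difference of -1.47 ± 0.25 (adjusted p = 0.0063), and L3mbtl2 differed by 1.0 ± 0.25 (adjusted p = 0.037), a call that was lost when any of 5 of the 8 libraries was left out (adjusted p up to 0.15).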

How the results depend on the processing

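Of 84 calls on the 10 genes over all comparisons, 49 held under every alternative run and 0 reversed. Counts of called genes (with the value of all libraries first) moved as follows. A fit to the groups compared alone gave 2 for Zfp281 KO at ESC (5; 12.5% of all genes), 5 of 8 tested for Zic2 KO at 32 h (0; 10.6%), 2 for double KO at ESC (4; 23.5%), and for the 32 h response 4 in Ehmt1 KO (7; 11.3%), 9 of 9 tested in Zic2 KO (5; 56.7%) and 0 in double KO (4; 2.13%). Without the Zfp281_WT line the counts were 9 for Zfp281 KO at ESC (5), 8 at 32 h (5) and 2 for the difference of response (0). With the line as a replicate block they were 7 for the double KO response (4) and, for the difference of response, 1 for Zfp281 KO, 1 for Ehmt1 KO and 4 for double KO (0 each), and the block lost no call on these genes. Leaving out each library gave 0 to 6 for Zfp281 KO at ESC, 0 to 2 for the Zfp281 difference of response, 3 to 4 for Ehmt1 KO at 32 h, 0 to 1 for Zic2 KO at ESC, 2 to 5 for double KO at ESC, 2 to 4 and 2 to 6 for double KO against Zic2 KO at ESC and 32 h, and 3 to 6 and 1 to 5 for the Ehmt1 KO and double KO responses. In refits with 1 library in a group, that library was assumed to vary like the other groups. In uncalled values, the double KO response of Tdrd1 (0.90) ran from -0.21 without line 2 at 32 h to 1.74 without line 2 at ESC, and the double KO difference of response of Mael from -1.62 without line 2 at 32 h to 0.11 without line 2 at ESC. The causes were not tested. DESeq2 kept 82 of the 84 calls, its size factors 83, and no filter 80. The share of higher calls among all genes was 57.7% in ribosome-depleted WT at 32 h and 48.8% with DESeq2 size factors, and 57.6% and 47.9% in the Zfp281 KO response. In the last 200 bases of the promoter windows Mov10l1 had a CpG ratio of 0.581 instead of 0.674. Asz1 in polyA WT, at 0 to 5 counts, is limited by depth.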
